A study of Mus musculus with 16 samples.

Results

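Expression of 6 growth hormone axis genes was followed across the pituitaries of all 16 mice: *Gh*, the hormone gene itself, *Ghrhr*, the receptor for growth hormone-releasing hormone, *Ghsr*, the receptor for ghrelin, and *Sstr2*, *Sstr3* and *Sstr5*, receptors for somatostatin. They were chosen by name, and all 6 were present among the 17362 genes listed. Pituitary RNA was sequenced as 1 library per mouse of females aged 27 weeks, and the mice formed 4 groups of 4. Controls were Esr1fl/fl females, which carry the floxed gene without Cre, and mutants were Esr1Nkx2-1Cre females, which lose *Esr1* (it encodes oestrogen receptor alpha) wherever *Nkx2-1* has driven Cre. Mice of both genotypes were fed a standard diet (SD, called chow in the labels) or a high-fat diet (HFD) for 17 weeks, starting at 10 weeks of age. *Nkx2-1* is a gene of the ventral forebrain, thyroid and lung lineages and, in the pituitary, is known from the posterior lobe. The study profiled the pituitary as a tissue source of secreted proteins that might build bone in the mutants.

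Somatotrophs of the anterior pituitary make and release growth hormone. Growth hormone-releasing hormone from the arcuate nucleus acts on GHRHR, which raises cyclic AMP and drives both transcription of *Gh* and release of the hormone. Ghrelin acts on GHSR through phospholipase C and calcium to add to that release, and somatostatin acts on its receptors through inhibitory G proteins to hold it down. Growth hormone then closes the loop through IGF1, and the somatotroph fate, like that of lactotrophs and thyrotrophs, depends on the transcription factor POU1F1.

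Each gene and mouse had 1 value, a length-scaled normalized signal and no count. Library sums ran from 908897 to 1335782. *Esr1* spanned 10.02 to 22.2 in the mutants fed SD, below the SD-fed controls at 29.0 to 46.6, whereas the ranges met on HFD (21.5 to 33.4 in mutants, 23.6 to 43.4 in controls). Somatotroph and lactotroph markers were present in every library and *Prl* and *Gh* ranked first and second by mean. A pair of libraries stood apart. P357, a mutant on SD, had the highest total, 533 genes at 0 against 96 to 310 in the others and a mitochondrial sum of 119409 against 32247 to 49368. P392, a control on HFD, had, like P357, a low summed signal of posterior lobe markers (15.1 in P357 and 17.4 in P392 against 34.6 to 61.8 elsewhere). *Rax* and *Avp* were at 0 in both and *Nkx2-1* was at 0 in P392. *Oxt* was 0.79 in P357 and 2.10 in P392 against 14.2 to 36.6 elsewhere. *Col25a1*, the largest part of both sums, was not low, at 13.9 and 15.3 against 6.06 to 18.2 elsewhere. *Pomc*, made by corticotrophs and melanotrophs, was 1654 in P357 and 3443 in P392 against 11234 to 42042 in the other 14 mice, and summed melanotroph markers were 12.7 and 40.6 against 99.4 to 255. Of the other corticotroph markers, *Crhr1* at 4.11 and 3.78 lay within the range of the other mice (2.79 to 6.53), and *Tbx19* and *Avpr1b* lay below that range in P357 and within it in P392. Results are therefore also given without these 2 mice. In bulk tissue, fewer cells of a type and less RNA per cell cannot be told apart.

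The 6 genes spanned more than 5 orders of magnitude. *Gh* had a mean signal of 57201 ± 18133 (SD, n = 16) and took between 3.21% and 9.59% of all signal in a library. *Ghrhr* followed at 66.4 ± 16.6, which placed it at rank 1434 of 17362. The receptors for somatostatin were lower, with *Sstr3* at 7.85 ± 1.72, *Sstr5* at 2.82 ± 0.72 and *Sstr2* at 0.70 ± 0.44, and *Ghsr* was the lowest of the 6 at 0.37 ± 0.24. *Gh* lay above *Ghrhr*, *Ghrhr* above *Sstr3*, *Sstr3* above *Sstr5* and *Sstr5* above *Sstr2* in all 16 mice, and none of those neighbouring ranges met. *Sstr2* exceeded *Ghsr* in only 11 of 16 mice, so over all mice these 2 were not separated beyond their spread. *Sstr2* was the higher in every mutant, and the mice with *Ghsr* higher were all controls (P356, P359, P383, P385 and P391). *Sstr1*, a somatostatin receptor outside the 6, took the largest part of the summed signal of *Sstr1* to *Sstr5*, 53.3% ± 9.77 (SD, n = 16), and lay above *Sstr3* in 14 of 16 mice. *Sstr3* took 29.6% ± 5.33, *Sstr5* 11.1% ± 4.54 and *Sstr2* 2.91% ± 2.61. These shares set signals per length side by side and count no receptor protein.

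**Figure D1:**
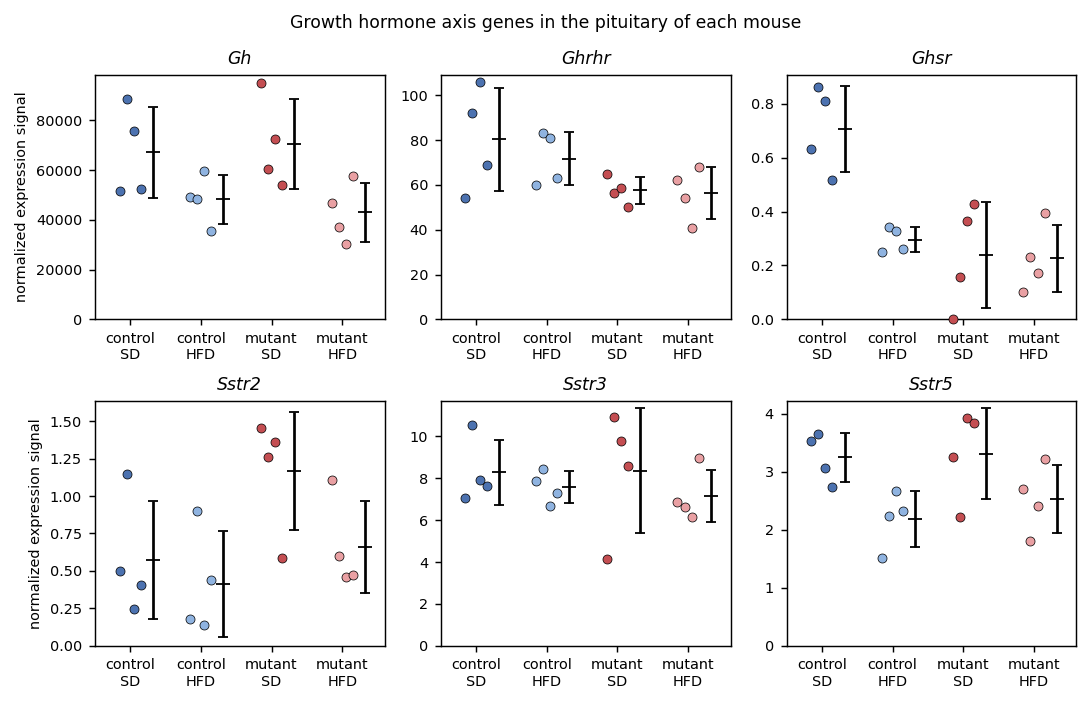
Normalized expression signal (vertical axis, linear) of the 6 genes in each mouse (points), by genotype and diet, with the mean and SD of each group of 4 beside the points. *Ghsr* in all 4 controls on SD, between 0.52 and 0.86, lies above every other mouse, and *Gh* sits lower on HFD than on SD in both genotypes with ranges that meet.

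Across genes, the comparisons asked whether loss of *Esr1*, HFD feeding or both changed any of these transcripts. A gene was called at an adjusted p under 0.05 from limma with Benjamini-Hochberg adjustment, fitted over 14345 genes whose mean reached 1. That filter was passed by 4 of the 6 genes (*Gh*, *Ghrhr*, *Sstr3* and *Sstr5*) and not by *Ghsr* or *Sstr2*. Of the 4 tested, 0 were called in mutants against controls on SD, where 1.84% of all genes tested were called. The count was also 0 when genotype was averaged over both diets, where 6.54% of all genes were called, and when diet was averaged over both genotypes, where 0.00697% were. It was 0 in mutants against controls on HFD, in HFD against SD within controls or within mutants, and in the interaction, and there 0% of all genes were called in each. At an unadjusted limma p under 0.05, *Ghrhr* was the 1 member in mutants against controls on SD (19.9% of all genes) and with genotype averaged (22.7%), *Sstr5* was the 1 in HFD against SD in controls (4.13%), *Gh* was the 1 in HFD against SD in mutants (5%), and *Gh* and *Sstr5* were the 2 with diet averaged (5.11%). No member reached it for mutants against controls on HFD (10.2%) or for the interaction (4.2%). Without P357 and P392 the calls over all genes rose from 264 to 961 on SD, from 0 to 1064 for mutants against controls on HFD and from 938 to 2668 with genotype averaged, and the count of members called stayed at 0 in each.

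**Figure D2:**
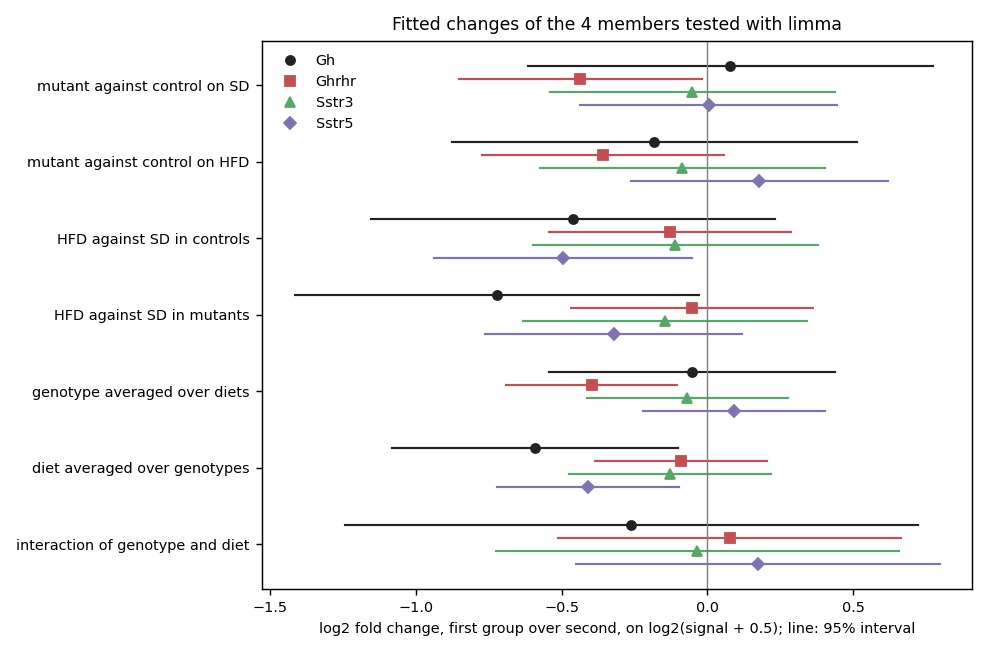
Log2 fold changes (horizontal axis) of the 4 genes tested with limma in the 7 comparisons, with lines for the 95% interval. *Ghrhr* has its point to the left of 0 in every comparison of mutants with controls, with genotype averaged at -0.40, and *Gh* lies furthest left for HFD against SD in mutants at -0.72.

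*Gh* (ENSMUSG00000020713) lies on the minus strand of chromosome 11 of GRCm38, 106300271 to 106301865, and has 1 annotated transcript of 862 bases in 5 exons. Controls on SD had *Gh* signals of 51686, 88696, 75796 and 52225, and controls on HFD had 49197, 48224, 59602 and 35647. Mutants on SD had 95123, 60514, 72459 and 54094, and mutants on HFD had 46865, 36933, 30462 and 57695. In each genotype the highest values were on SD and the lowest on HFD, with 1 mutant on HFD and 1 control on HFD reaching into the SD range.

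Group means of *Gh* were 67101 ± 18265 in controls on SD, 48167 ± 9808 in controls on HFD, 70547 ± 18064 in mutants on SD and 42989 ± 11901 in mutants on HFD (SD, n = 4 each). The mutants on HFD were 39.1% below the mutants on SD (log2 fold change -0.72, standard error 0.33, limma adjusted p = 0.813, two-sided exact permutation p = 0.0571). Controls on HFD were 28.2% below controls on SD (-0.46, standard error 0.33, adjusted p = 0.998, exact permutation p = 0.143). Averaged over genotypes, the difference with HFD was -0.59 (95% interval -1.08 to -0.10, adjusted p = 0.90). The genotype differences in *Gh* were 0.08 on SD and -0.18 on HFD, with intervals from -0.62 to 0.77 and from -0.88 to 0.51. No genotype or diet difference of *Gh* passed the test. Because *Gh* itself is a large share of each library, its values were also scaled to the sum without *Prl* and *Gh*, and the sign on SD then turned to -0.067, a setting that moved the median of all genes in that comparison by -0.14.

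*Ghrhr* (ENSMUSG00000004654; chromosome 6 plus strand, 55376295 to 55388530) marks somatotrophs and sets their response to the hypothalamus. Its signals were 54.3, 92.0, 106.0 and 68.8 in controls on SD and 59.8, 82.9, 81.0 and 63.2 in controls on HFD. Mutants fed SD had 65.0, 56.5, 58.4 and 50.3, and mutants fed HFD had 62.0, 54.2, 40.9 and 67.8. No mutant reached 70, whereas 4 of the 8 controls lay above 80, and 3 controls, P356 at 54.3, P385 at 59.8 and P392 at 63.2, sat among the mutants.

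On SD, *Ghrhr* averaged 80.3 ± 23.1 in controls and 57.6 ± 6.07 in mutants, and on HFD 71.7 ± 11.9 and 56.2 ± 11.6 (SD, n = 4 each). The log2 fold change in mutants was -0.44 on SD (standard error 0.20, limma adjusted p = 0.232) and -0.36 on HFD (0.20, adjusted p = 0.563), with an exact permutation p of 0.143 in each. With genotype averaged over diets it was -0.40 (95% interval -0.69 to -0.10, adjusted p = 0.0993 from limma), which is not a call. Leaving out P356 made it one, at -0.48 (limma adjusted p = 0.0259), and without any other single mouse it stayed uncalled. The diet differences in *Ghrhr* were -0.13 in controls and -0.05 in mutants, with intervals from -0.54 to 0.29 and from -0.47 to 0.36. *Pou1f1*, which *Ghrhr* transcription is known to need, had a like estimate of -0.34 with genotype averaged (limma adjusted p = 0.110) and was not called. The somatotroph markers used here were *Gh*, *Ghrhr*, *Pou1f1* and *Pappa2*, and they did not move together. *Pappa2* was higher in mutants (0.94 with genotype averaged, a call), and *Gh* was 0.08 on SD and -0.18 on HFD. Summed endothelial markers were higher in mutants on SD, at 23.4 to 29.4 in controls and 36.4 to 49.2 in mutants, and their part in the *Ghrhr* values was not tested.

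*Ghsr* (ENSMUSG00000051136; chromosome 3 plus strand, 27371351 to 27378010) has 1 annotated transcript of 4433 bases in 3 exons. Its promoter is shown because *Ghsr* was the member whose groups separated by genotype on SD, where *Esr1* is reduced. *Ghsr* also separated by diet in controls, where *Esr1* ranges met (29.0 to 46.6 on SD, 23.6 to 43.4 on HFD). The part of *Esr1* in the *Ghsr* differences was not tested. This promoter was searched on both strands for the oestrogen response element GGTCANNNTGACC and its half-site AGGTCA. The POU1F1 site was searched as TATNCAT. RefSeq promoters on GRCm38.p6, 250 bases before to 50 bases after the gene start, were given for *Ghsr*, *Sstr2* and *Sstr3*. The promoter of *Sstr2*, a member whose mean on SD was higher in mutants where that of *Ghsr* was lower, is set beside it. Capitals mark the half-site, and both are printed 5′ to 3′ on the plus strand.
*Ghsr*, chr3:27371101-27371400: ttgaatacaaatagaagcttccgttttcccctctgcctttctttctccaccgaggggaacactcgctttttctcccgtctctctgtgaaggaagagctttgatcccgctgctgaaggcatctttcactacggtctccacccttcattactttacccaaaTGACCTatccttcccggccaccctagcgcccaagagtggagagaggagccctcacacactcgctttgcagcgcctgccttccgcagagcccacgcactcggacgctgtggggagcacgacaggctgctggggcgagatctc
*Sstr2*, chr11:113619077-113619376: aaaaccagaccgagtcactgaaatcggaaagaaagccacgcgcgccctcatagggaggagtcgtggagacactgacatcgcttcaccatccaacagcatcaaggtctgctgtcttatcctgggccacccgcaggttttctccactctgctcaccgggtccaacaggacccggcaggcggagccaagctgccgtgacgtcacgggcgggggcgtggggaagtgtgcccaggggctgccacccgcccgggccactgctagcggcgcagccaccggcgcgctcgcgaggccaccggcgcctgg
The *Ghsr* window held 1 half-site on the opposite strand, starting 91 bases before the gene start, and none of the other letters. The *Sstr2* and *Sstr3* windows held none of them. Of 32841 mouse promoters of 300 bases, 16.3% held the half-site, 0.0700% the full element and 8.84% the POU1F1 letters, so a half-site is common, and a match is a description and not a site.

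Controls on SD had *Ghsr* signals of 0.63, 0.86, 0.81 and 0.52, and controls on HFD had 0.25, 0.34, 0.33 and 0.26. Mutants on SD had 0, 0.16, 0.36 and 0.43, and mutants on HFD had 0.10, 0.23, 0.17 and 0.40. The 4 controls on SD were the 4 highest of the 16 mice, and the other 3 groups met one another. From the size of 1 read on genes with a single transcript, these values stood for about 42 to 68 reads per mouse in controls on SD and 16 to 24 in controls on HFD. In mutants they stood for between 0 and 28 reads with SD feeding and between 7 and 27 with HFD feeding. The mutant at 0 was P357, where a count of 0 allows a signal of up to 0.0444 (3 reads), counting error only. These are few reads, and 12 of the 16 *Ghsr* values fell within 0.1 of a whole read by this estimate.

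Mean *Ghsr* was 0.71 ± 0.16 in controls on SD and 0.24 ± 0.20 in mutants on SD (SD, n = 4 each), 66.3% lower in mutants, with no overlap between the groups (two-sided exact permutation p = 0.0286, the smallest that 4 against 4 allow). In that direction, 4.22% of all 17362 genes listed had groups without overlap, and 10.1% in either direction. Controls on HFD averaged 0.30 ± 0.05, 58.1% below controls on SD and again without overlap (exact permutation p = 0.0286), where 1.41% of all genes did so in the lower direction and 2.68% in either. On HFD the genotypes met, as they did for every member (2.18% of all genes separated with mutants lower and 5.03% in either direction), with 0.23 ± 0.13 in mutants (exact permutation p = 0.314). HFD against SD within mutants gave 0.004 on the log2 scale (exact permutation p = 1) and -0.17 without P357 (exact permutation p = 0.457), and there too no member separated (1.45% of all genes with HFD lower, 3.34% in either direction). Of 24 such tests, of 6 genes in 4 pairwise comparisons and unadjusted, 3 reached 0.0286, these 2 of *Ghsr* and 1 of *Sstr5*, and all 3 rest on the same 4 controls on SD.

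When all genes were fitted without the filter, *Ghsr* in mutants on SD had a log2 fold change of -0.74 (standard error 0.19, limma adjusted p = 0.0621), and HFD against SD in controls -0.59 (adjusted p = 1.00). The interaction, which tests whether the genotype difference on HFD departs from that on SD, was 0.60 (standard error 0.27, limma adjusted p = 0.937), so a change of the genotype difference with diet was not called. Without P357 and P392 the SD difference was -0.57 (limma adjusted p = 0.0756) and the 3 mutants left still lay below the 4 controls. P383 was the 1 control on SD from the upper range of animal numbers (P381 to P392). It had the lowest *Ghsr* value of its group, above all 4 controls on HFD, which were from that range too. The other controls on SD (P356, P358 and P359) were from the lower range, as was P357 but no other mutant on SD. Controls on SD thus differed in number range from both groups they were set against. The part of number range in the *Ghsr* differences was not tested. Fold changes on log2(signal + 0.5) understate the change of a gene this low.

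*Sstr2* (ENSMUSG00000047904; chromosome 11 plus strand, 113619342 to 113626028) is a main target of somatostatin analogues in somatotroph tumours. It overlaps *Slc39a11* on the opposite strand, and since the use of strand in counting is not given in the sources used here, reads from the overlap cannot be told apart. Its signals were 0.50, 1.15, 0.25 and 0.40 in controls on SD and 0.18, 0.90, 0.14 and 0.44 in controls on HFD. They were 1.46, 1.26, 1.36 and 0.59 in mutants on SD and 1.11, 0.60, 0.46 and 0.47 in mutants on HFD. On SD, 3 of the 4 mutants lay above every control, and P384 lay among them.

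Mean *Sstr2* was 0.57 ± 0.40 in controls and 1.17 ± 0.40 in mutants on SD, a ratio of 2.04 (SD, n = 4 each; exact permutation p = 0.0571). On HFD the means were 0.41 ± 0.35 and 0.66 ± 0.31 (exact permutation p = 0.229). The unfiltered limma fit gave 0.66 on SD (standard error 0.30, adjusted p = 0.243) and 0.53 with genotype averaged (0.21, adjusted p = 0.157). Neither *Sstr2* difference passed the test, and the sign in mutants on SD was opposite to that of *Ghsr*.

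*Sstr3* (ENSMUSG00000044933; chromosome 15 minus strand, 78537008 to 78544685), a receptor known from primary cilia, had no pairwise log2 difference farther from 0 than the -0.15 of HFD against SD in mutants. Its signals were 7.08, 10.6, 7.92 and 7.62 in controls on SD, 7.89, 8.46, 6.68 and 7.32 in controls on HFD, 4.13, 10.9, 9.81 and 8.61 in mutants on SD and 6.87, 6.65, 6.16 and 8.96 in mutants on HFD. P357 was the low mutant at 4.13, and the other 15 mice lay between 6.16 and 10.9. Its log2 fold change in mutants was -0.05 on SD (95% interval -0.54 to 0.44) and -0.09 on HFD (-0.58 to 0.40), and without P357 and P392 the SD value turned to 0.23 (limma adjusted p = 0.404).

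*Sstr5* (ENSMUSG00000050824; chromosome 17 minus strand, 25489875 to 25497288) had lower values on HFD in controls. Its signals there were 1.51, 2.23, 2.66 and 2.32, against 3.53, 3.64, 3.06 and 2.74 in controls on SD. They were 3.25, 2.22, 3.93 and 3.83 in mutants on SD and 2.70, 1.81, 2.41 and 3.22 in mutants on HFD. No control on HFD reached the lowest control on SD, by a margin of 2.66 to 2.74. Between diets in controls, 1.41% of all genes listed separated with HFD lower and 2.68% in either direction. The mutants overlapped between diets, where 3.34% of all genes separated in either direction.

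Controls on HFD averaged 2.18 ± 0.49 for *Sstr5* against 3.25 ± 0.42 on SD (SD, n = 4 each), 32.8% lower (exact permutation p = 0.0286, log2 fold change -0.50, standard error 0.21, limma adjusted p = 0.998). In mutants the diet difference was -0.32 (standard error 0.21, exact permutation p = 0.20). Averaged over genotypes it was -0.41 (95% interval -0.72 to -0.10, limma adjusted p = 0.90), and the interaction was 0.17 (adjusted p = 0.953), so the diets' differences were not shown to depend on genotype. Genotype gave 0.004 on SD and 0.18 on HFD. P383 was again the lowest control on SD, at 2.74, and controls on SD and on HFD differed in number range here too.

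From mouse to mouse, *Gh* and *Ghrhr* varied together. Over the 16 mice Pearson's r of their log2 values was 0.58 (permutation p = 0.0184) and Spearman's rho 0.46 (p = 0.0721), and without the 2 mice farthest from the median of *Gh*, P357 and P387, r was 0.53. Without P357 and P392, r of the log2 values was 0.70 (permutation p = 0.00578). As deviations from the 4 group means over all 16 mice, r was 0.81 (permutation p = 0.000170). Permutation p values of such deviations take no account of the 4 fitted means and can come out too small. The ranges of animal numbers were compared on the log2 values again. Within the 6 mice of the lower range of animal numbers r was 0.67, and within the 10 of the upper range 0.40. The plot of both genes shows mutants on SD below other mice of like *Gh*.

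**Figure D3:**
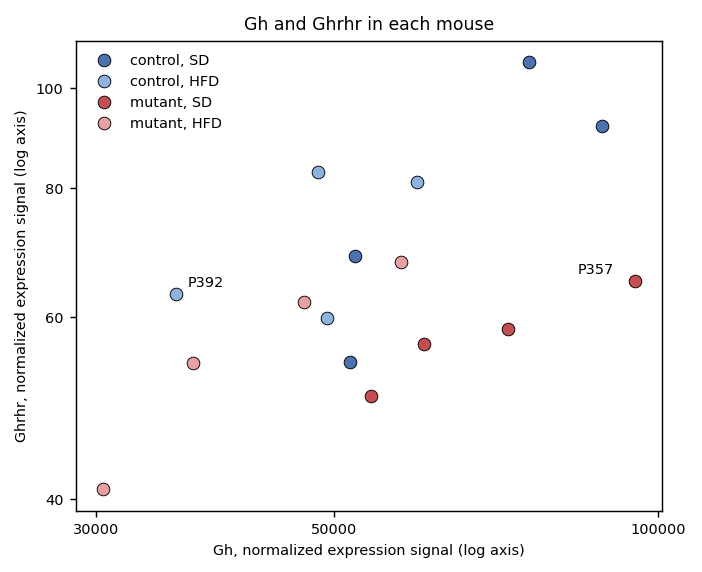
*Gh* against *Ghrhr* in each of the 16 mice, both as normalized expression signal on log axes, coloured by group, with the 2 libraries that stood apart named. Points rise from the lower left to the upper right (r = 0.58), and the 4 mutants on SD form a row below the mice of other groups with similar *Gh*.

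Among the 15 pairs of members, 4 had a permutation p under 0.05, unadjusted. Besides *Gh* and *Ghrhr* these were *Gh* with *Sstr5* (r = 0.58, p = 0.0198, rho = 0.57, p = 0.0220), *Ghrhr* with *Ghsr* (r = 0.52, p = 0.0403, rho = 0.40, p = 0.125) and *Ghsr* with *Sstr3* (r = 0.54, p = 0.0325, rho = 0.49, p = 0.0586). *Ghsr* with *Sstr3* fell to 0.08 without P358 and P357, the 2 mice farthest from the median of *Ghsr*, so it rests on those mice. As deviations from group means over all 16 mice, *Ghsr* with *Sstr3* was 0.69 (permutation p = 0.00343). *Ghrhr* with *Ghsr* fell to 0.31 without P359 and P387 and to 0.20 as deviations from group means (permutation p = 0.469). *Gh* with *Sstr5* was 0.61 without its 2 farthest mice but 0.32 (permutation p = 0.220) as deviations from group means, so part of it lay between the groups. Without P357 and P392, *Gh* with *Sstr5* was 0.56 (permutation p = 0.0369), *Ghrhr* with *Ghsr* 0.61 (p = 0.0209) and *Ghsr* with *Sstr3* 0.28 (p = 0.328). *Gh* with *Ghsr* (r = 0.66), *Gh* with *Sstr3* (0.72), *Ghsr* with *Sstr5* (0.58) and *Sstr2* with *Sstr3* (0.58) then also had a permutation p under 0.05. All pairs share their libraries and the scaling of each library.

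By the same measure over the 16 mice, the genes most like *Gh* of 14341 compared were *Bmyc* (r = 0.90), *Rab3b* (0.85), *Dlk1* (0.85), *Mtrf1l* (0.84) and *Pde9a* (0.83). *Rab3b* encodes a GTPase of secretory vesicles and *Dlk1* a membrane protein that somatotrophs are known to express. Those most like *Ghrhr* were *1700001L19Rik* (r = 0.87), *Cetn2* (0.86), *Sgcz* (0.86), *Rph3al* (0.86) and *Xkr6* (0.86), of which *Rph3al* encodes a regulator of exocytosis. Over the 16 mice, r of *Pou1f1* was 0.63 with *Ghrhr*, at rank 663 of 14341, and -0.00059 with *Gh*. As deviations from the group means it was 0.43 with *Ghrhr* and 0.0070 with *Gh*. Without P357 and P392 it was 0.68 with *Ghrhr* and 0.26 with *Gh*. These values are descriptions, with no test.

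The wider pathway was described with 53 other genes in 7 lists, from ligands to feedback, of which 50 were listed and 48 tested. *Ghrh*, *Sst* and *Gpr101* were not analysed here. None of the 48 was called in mutants against controls on either diet, in HFD against SD or in the interaction, and 7 were called with genotype averaged over diets, 14.6% against 6.54% of all genes, with a median of -0.06 against 0.002 over all genes. At an unadjusted limma p under 0.05 there were 21 of the 48 with genotype averaged (22.7% of all genes), 18 in mutants against controls on SD (19.9%) and 7 on HFD (10.2%). Diet gave 3 in controls (4.13%), 2 in mutants (5%) and 3 when averaged (5.11%), and the interaction gave 1 (4.2%). Higher in mutants were *Pappa2*, a protease that frees IGF1 from its binding proteins (log2 fold change 0.94, limma adjusted p = 0.0376), *Gnai1*, an inhibitory G protein subunit through which somatostatin receptors act (0.82, adjusted p = 0.0283), *Ghr*, the growth hormone receptor (0.57, adjusted p = 0.0373), and *Plcb3*, a phospholipase C (0.32, adjusted p = 0.0476). Lower were *Kcnj3*, a potassium channel subunit opened by such G proteins (-0.62, limma adjusted p = 0.0277), *Plcb4*, another phospholipase C (-0.31, adjusted p = 0.0340), and *Cdkn1b*, the cell cycle inhibitor p27 (-0.18, adjusted p = 0.0457). Scaling to the sum without *Prl* and *Gh* ended 5 of these 7 calls, those of *Pappa2*, *Ghr*, *Gnai1*, *Plcb3* and *Cdkn1b*. In that scaling the count of all genes called with genotype averaged went from 938 to 734.

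**Figure D4:**
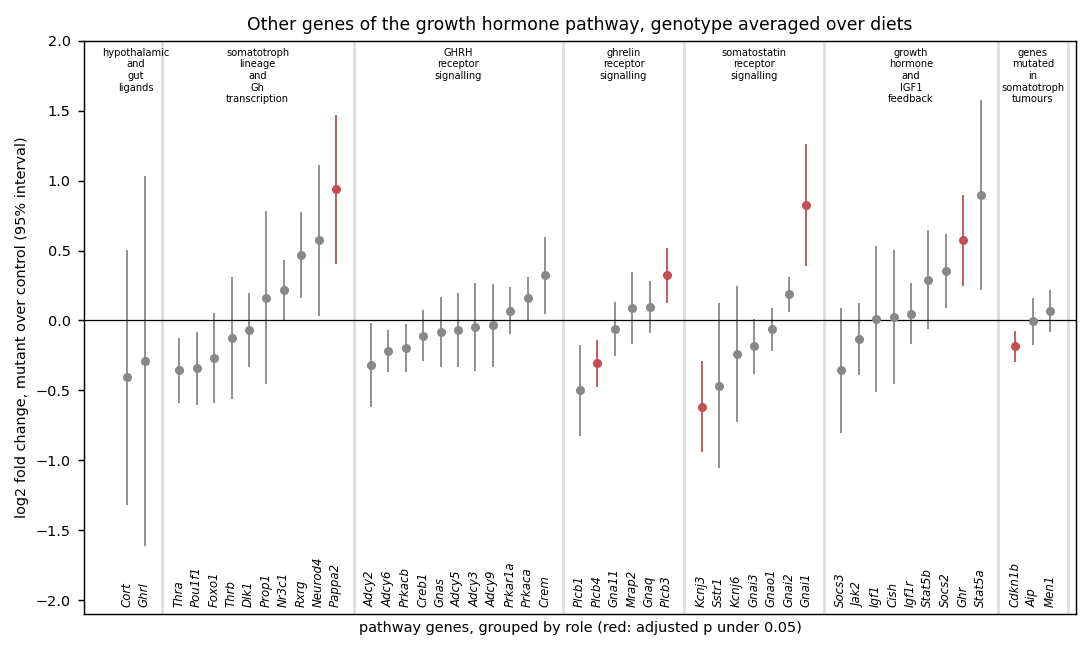
Log2 fold change of mutants over controls, averaged over diets, for the 48 pathway genes tested, grouped by role, with lines for the 95% interval and red for an adjusted p under 0.05. The 7 red genes, 4 above and 3 below 0, are spread over 5 of the 7 lists.

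By role, 1 of 10 genes of the somatotroph lineage was called (*Pappa2*), 0 of 11 of GHRH receptor signalling, 2 of 6 of ghrelin receptor signalling (*Plcb3* higher, *Plcb4* lower), 2 of 7 of somatostatin receptor signalling (*Gnai1* higher, *Kcnj3* lower), 1 of 9 of feedback (*Ghr*), 1 of 3 of genes mutated in somatotroph tumours (*Cdkn1b*) and 0 of 2 ligands. *Ghr* was between 1.75 and 2.86 in controls on SD and between 2.86 and 4.43 in mutants on SD, and between 1.92 and 2.92 in controls and 2.35 and 4.91 in mutants on HFD. *Pappa2* was between 4.63 and 8.15 in controls and 4.50 and 17.2 in mutants on SD. On HFD it was between 3.79 and 6.86 in controls and 6.64 and 17.0 in mutants. *Kcnj3* was between 7.53 and 13.0 in controls and 3.80 and 8.01 in mutants on SD. On HFD it was between 5.77 and 10.2 in controls and 5.30 and 5.99 in mutants. *Gnai1* was between 3.38 and 4.30 in controls and 3.84 and 9.78 in mutants on SD. On HFD it was between 4.02 and 10.9 in controls and 8.35 and 12.0 in mutants. The pituitary's own ligands, *Ghrl* for ghrelin and *Cort* for cortistatin, were between 0 and 6.83 and between 0 and 3.09. Leaving out P359, P382, P390, P391 or P341 ended all 7 calls (limma adjusted p of 0.0507 to 0.105), and leaving out P357 or P392 ended none. Leaving out any of the other 9 mice ended between 1 and 6. Marker sums of 4 other cell types did not overlap between genotypes on SD and were higher in mutants, endothelial as above, pericyte at 67.0 to 84.4 against 24.9 to 41.8, immune at 33.3 to 78.8 against 17.2 to 23.95, and stem and folliculostellate at 36.1 to 44.98 against 28.3 to 35.0. On HFD they were 43.0 to 53.3 in mutants against 23.4 to 58.3 in controls for endothelial, 73.0 to 118 against 28.5 to 132 for pericyte, 32.8 to 68.3 against 14.6 to 56.4 for immune and 34.9 to 45.9 against 31.9 to 42.0 for stem and folliculostellate markers. P392 was the highest control on HFD in all 4, and without it the controls reached 29.4, 39.3, 29.5 and 38.4. These are sums, and not every marker separated by itself. Sums of the other marker lists (somatotroph, lactotroph, corticotroph, melanotroph, gonadotroph, thyrotroph, posterior lobe and erythrocyte) overlapped between genotypes on SD. Of the markers of the 4 types, *Pecam1*, *Cdh5*, *Kdr*, *Rgs5*, *Ptprc*, *C1qa* and *Aldh1a1* did not overlap between genotypes on SD, and *Pdgfrb*, *Csf1r*, *Sox2*, *S100b* and *Cdh1* did. Of all genes listed, 10.1% did not overlap there in either direction. The part of these markers in the pathway values, and in the *Ghsr* difference on SD, was not tested.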

How the data were processed

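Pituitary RNA of 16 female mice was sequenced as 1 library per mouse. The authors prepared NEBNext Ultra II libraries, sequenced them on a NovaSeq and, per the labels, quantified reads with kallisto against mm10 and used sleuth, and versions, annotation release, listing filter and strand use are not given in the sources used here. The authors deposited a normalized expression signal for every gene, with no value below 0 and no counts, so no count test was run. The labels name separate mice and no pairing.

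Values were taken as log2(signal + 0.5). Genes whose mean reached 1 (14345) entered limma 3.58.1 (R 4.3.3), which fitted 4 group means to the 16 mice with a variance trend and Benjamini-Hochberg adjustment over all genes tested at 0.05. The 6 genes were also compared by two-sided exact permutation tests (24, unadjusted) and correlated in 15 pairs (100000 resamples, unadjusted) with Python 3.11.15 and scipy 1.17.1. Symbols came from the gene table given for 17351 of 17362 rows, positions from GENCODE M21 on GRCm38 and promoters from RefSeq on GRCm38.p6. None of the 6 genes shared 90% identity over 100 bp with another gene by BLAST 2.17.0.

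The size of 1 read was searched in 1451 genes with 1 transcript of at least 1500 bp. It lay between 0.0450 and 0.0680 units per kilobase, those genes carried between 848519 and 1263972 reads per mouse, and 74.3% to 82.8% of their low values were within 0.1 of a whole read. A slack of 0.2 in that search was set after values were seen. Genes with several transcripts have no such estimate, so the depth behind *Sstr2* is unknown. Both scripts were tested on simulated data.

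The members, gene lists and tests were chosen with earlier results of these data known. Genes most like *Gh* and *Ghrhr* are the 5 with the highest Pearson r among tested genes that are not members. Alternatives were a filter at 0.1, at 5 or absent, a pseudocount of 0.1 or 1, median scaling, scaling to the sum without *Prl* and *Gh*, quantile normalization, no variance trend, only the mice compared, adjusting for animal number range, a stricter threshold (0.01), and omission of each mouse or of P357 and P392.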

Additional observations from a re-analysis of the deposited data

Results flagged for a closer look

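*Gnai1* in P392, a control on HFD, was 10.9 where the other 3 controls on HFD were between 4.02 and 4.54, a gap wider than Dixon's critical value for 4 samples allows. Without P392 the log2 fold change of *Gnai1* with genotype averaged was 0.98 instead of 0.82 (limma adjusted p = 0.00108). This was the 1 value found among 52 groups of 4 mice searched, of 13 genes. There chance flags about 1 in 20, which is 2.6 over the groups searched and more than were found. No value of *Gh*, *Ghrhr*, *Ghsr*, *Sstr2*, *Sstr3* or *Sstr5* was found.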

How the results depend on the processing

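The counts of members called stayed at 0 under every alternative run, except 1 (*Ghrhr*, genotype averaged) without P356, a range of 0 to 1 over leaving out each mouse. The 3 permutation tests at the smallest p stayed 3 under both pseudocounts and both scalings. The pairs of members with p under 0.05 were 4, but 7 without P357 and P392. Of 793 member fold changes recomputed, 745 kept direction and side, 1 became a call and 47 changed sign, none of them called. The 745 include the *Gh* differences that quantile normalization set to 0. The cause of the sign changes was not tested.

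Scaling to the sum without *Prl* and *Gh* turned *Gh* on SD to -0.067, *Sstr5* on SD to -0.12, *Ghrhr* in mutants by diet to 0.020 and the *Sstr3* interaction to 0.083. Quantile normalization turned *Sstr5* on SD to -0.028 and set every *Gh* difference to 0. Animal number range as a covariate turned *Ghrhr* by diet in controls to 0.019, its interaction to -0.12, *Sstr3* on HFD to 0.091, its interaction to 0.32 and *Sstr5* on SD to -0.0096. Without P357 and P392, filtered or not, *Gh* on SD was -0.076, *Ghrhr* in mutants by diet 0.0080, *Sstr3* on SD 0.23 and averaged 0.067, and *Ghsr* in mutants by diet -0.17. A pseudocount of 1 turned *Ghsr* in mutants by diet to -0.0045.

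Leaving out 1 mouse gave ranges across 0 for *Gh* on SD (-0.076 to 0.23) and averaged (-0.13 to 0.024), *Ghrhr* by diet in controls (-0.30 to 0.019), in mutants (-0.15 to 0.091) and in the interaction (-0.072 to 0.25), *Sstr3* on SD (-0.20 to 0.23), by diet in controls (-0.18 to 0.0049) and mutants (-0.43 to 0.0024), averaged (-0.14 to 0.074) and in the interaction (-0.32 to 0.11), *Sstr5* on SD (-0.077 to 0.16) and *Ghsr* by diet in mutants (-0.17 to 0.13).

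Scaling to the sum without *Prl* and *Gh*, which moved the median of all genes by -0.076, ended the pathway calls of *Pappa2*, *Ghr*, *Gnai1*, *Plcb3* and *Cdkn1b*, quantile normalization also that of *Ghr*, a filter of 5 and a fit without variance trend also that of *Cdkn1b*, and 6 alternatives in all that of *Plcb3*. All genes called on SD, 264, became 961 without P357 and P392, 151 at a filter of 5, 123 in that scaling and 20 at 0.01, on HFD 0 became 1064 without both, and averaged 938 became 2668, 610 at a filter of 5 and 186 at 0.01. No paired analysis was possible because the labels give no replicate numbers shared between groups. Few reads limit *Ghsr*, and 4 mice a group limit all tests.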

Other observations

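*Mboat4*, the acyltransferase that activates ghrelin, was too low for the filter. It was between 0.17 and 0.43 in controls on SD, 0.50 and 0.80 in mutants on SD, 0.44 and 0.61 in controls on HFD and 0.35 and 0.73 in mutants on HFD. Its 4 controls on SD were thus below all controls on HFD and all mutants on SD, the reverse of *Ghsr* in the same mice. In either direction, 10.1% of all genes listed had groups without overlap between genotypes on SD and 2.68% between diets in controls. *Mboat4* was singled out after its values were seen.

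The ratio of *Ghrhr* to *Gh*, chosen after the values were seen, was 1.04 to 1.40 per 1000 in controls on SD, 0.68 to 0.93 in mutants on SD, 1.22 to 1.77 in controls on HFD and 1.18 to 1.47 in mutants on HFD. Mutants on SD lay below all mice of the other groups. The mean log2 ratio differed by -0.52 between mutants and controls on SD and by 0.67 between HFD and SD in mutants, and by -0.42 and 0.58 without P357 and P392. It differed by -0.18 between genotypes on HFD and by 0.33 between diets in controls. Since the ratio was picked for this pattern, these are descriptions, with no test.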
